A study of Mus musculus with 2 samples.

Results

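DNA methylation genes here are the 9 genes *Dnmt1*, *Dnmt3a*, *Dnmt3b*, *Uhrf1*, *Tet1*, *Tet2*, *Tet3*, *Mbd1* and *Mbd2*, which were chosen by name among the 16830 genes of the deposited expression table and each had 1 row. RNA was sequenced from CD4+CD25hiYFP+ Treg cells sorted from spleen and lymph nodes of C57BL/6 mice at 6 months of age. WT Treg cells came from mice labelled Foxp3-YFP-Cre (titled Fcre/cre), and USP21-ΔTreg cells came from mice labelled Foxp3-YFP-Cre/USP21-floxp/floxp (titled UKO), which also carry floxed *Usp21* alleles. Both genotypes therefore carry the YFP-Cre fusion, which is expressed from the *Foxp3* locus. Only in the mice with floxed alleles is *Usp21* thereby deleted, in cells that have expressed *Foxp3*. Each genotype had a single library without replicates, and the number of mice behind a library is not given in the sources used here. No test between genotypes was possible. Each difference is one between these 2 libraries.

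DNA methylation marks cytosines in CpG dinucleotides. DNMT3A and DNMT3B place the mark on unmethylated DNA, and after each round of replication UHRF1 recognizes the half-marked DNA and recruits DNMT1, which copies the mark to the new strand. TET enzymes oxidize 5-methylcytosine, which leads to its removal. MBD1 and MBD2, of the methyl-CpG binding domain (MBD) family, bind methylated CpG and recruit corepressors. In Treg cells, loss of methylation at a conserved intronic element of *Foxp3* is known to accompany stable *Foxp3* expression, TET enzymes are needed for it, and both *Dnmt1* and *Uhrf1* are known to be required for normal Treg cells in mice.

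*Uhrf1* was the 1 gene of the 9 that differed by at least 2-fold. It stood at 18.0 FPKM (fragments per kilobase of transcript, scaled to the mapped fragments of the library) in the WT library and at 3.69 FPKM in the USP21-ΔTreg library, 4.87-fold lower. *Dnmt1*, whose product UHRF1 guides to replicated DNA, stood at 22.8 and 23.0 FPKM. The gene for the recruiting factor was thus at a much lower level in the USP21-ΔTreg library, whereas the gene for the enzyme it recruits was at nearly the same level.

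Both genes lie on mm10. *Uhrf1* spans chr17:56303337-56323486 on the plus strand, and *Dnmt1* spans chr9:20907206-20959888 on the minus strand. RefSeq (GRCm38.p6) gives *Uhrf1* 2 start sites and *Dnmt1* 3, and the window from 250 bases before to 50 after a start site was searched for TTTCGCGC, TTTGGCGC and TTTCCCGC, which are forms of the site bound by E2F factors of the G1/S transition, on both strands. The first form and its reverse complement can overlap by the letters they share, but no matches overlapped in the windows of these genes. The 1 window of each gene that held a match is printed, 5′ to 3′ on the gene's strand with the match in capitals. The *Uhrf1* window is chr17:56304063-56304362 and the *Dnmt1* window is chr9:20952574-20952873.
Uhrf1: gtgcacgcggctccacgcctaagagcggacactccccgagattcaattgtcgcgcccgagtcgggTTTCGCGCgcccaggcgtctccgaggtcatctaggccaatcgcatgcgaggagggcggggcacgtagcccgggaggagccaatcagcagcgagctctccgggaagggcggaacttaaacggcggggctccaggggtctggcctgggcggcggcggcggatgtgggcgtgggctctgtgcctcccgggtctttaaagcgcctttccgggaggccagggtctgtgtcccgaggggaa
Dnmt1: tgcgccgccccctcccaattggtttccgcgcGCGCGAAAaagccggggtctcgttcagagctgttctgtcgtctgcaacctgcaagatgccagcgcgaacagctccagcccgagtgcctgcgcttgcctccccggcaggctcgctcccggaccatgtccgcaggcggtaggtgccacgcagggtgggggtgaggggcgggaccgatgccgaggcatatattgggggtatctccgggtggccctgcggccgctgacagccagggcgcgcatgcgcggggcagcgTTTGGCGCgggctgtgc
Between them, the windows of *Uhrf1* and *Dnmt1* differed in the number and place of matches. The *Uhrf1* window held 1 match, 185 bases before the start site, and the *Dnmt1* window held 2, at 219 bases before and 33 bases after it. Each of these windows held 33 CpG dinucleotides. Such letters were found in 1.84% of 32851 promoter windows of this length in RefSeq, and in at least 1 window of 2.12% of 27025 genes. Of the 7 genes of the 9 with a window, *Uhrf1* and *Dnmt1* held them. That number follows from the genome sequence and the choice of genes and is no result of these libraries. A match is a description of the letters and not a bound site, and no relation of matches to RNA levels was tested.

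The libraries were alike in depth, with 23198422 fragments in genes for WT Treg cells and 23418561 for USP21-ΔTreg cells. The deleted gene *Usp21* had 463 fragments in the WT library and 198 in the USP21-ΔTreg library. Both libraries held *Foxp3* (91.8 and 55.2 FPKM), *Ctla4* and *Ikzf2*, *Cd3e* (79.3 and 131 FPKM) and *Cd4* (133 and 204 FPKM), whereas *Il2ra*, the gene of the sorted marker CD25, stood at 168 and 19.3 FPKM. Markers of other cell types had higher summed levels in the library of USP21-ΔTreg cells. The summed level of 5 B cell markers was 10.2 FPKM in the WT and 25.6 FPKM in the USP21-ΔTreg library, that of 6 NK and CD8 T cell markers was 20.1 and 56.2 FPKM, that of 5 myeloid markers was 3.26 and 7.75 FPKM, and that of 7 erythroid markers was 34.2 and 96.1 FPKM. All 4 B cell markers kept were at least 2-fold higher in the USP21-ΔTreg library. All 4 NK and CD8 T cell markers kept were higher too, 2 of them by at least 2-fold. The myeloid and erythroid markers did not all differ in 1 direction. Of the 5 erythroid markers kept, 3 were at least 2-fold higher and *Hba-a2* (3.53 and 0.116 FPKM) and *Hbb-b1* (5.09 and 0.869 FPKM) at least 2-fold lower, and these globin genes have near-identical copies among which reads may be split. Of the myeloid markers only *Lyz2* (2.03 and 6.41 FPKM) was kept, and *Cd14* had 15 and 6 fragments. Among the NK and CD8 T cell markers, *Klrd1* (0.699 and 15.8 FPKM) had the highest fold change. None of these 23 markers was at 0 in either library, and their part in the values below was not tested. In RNA from sorted populations, fewer cells that express a gene and less RNA per cell cannot be told apart.

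**Figure D1:**
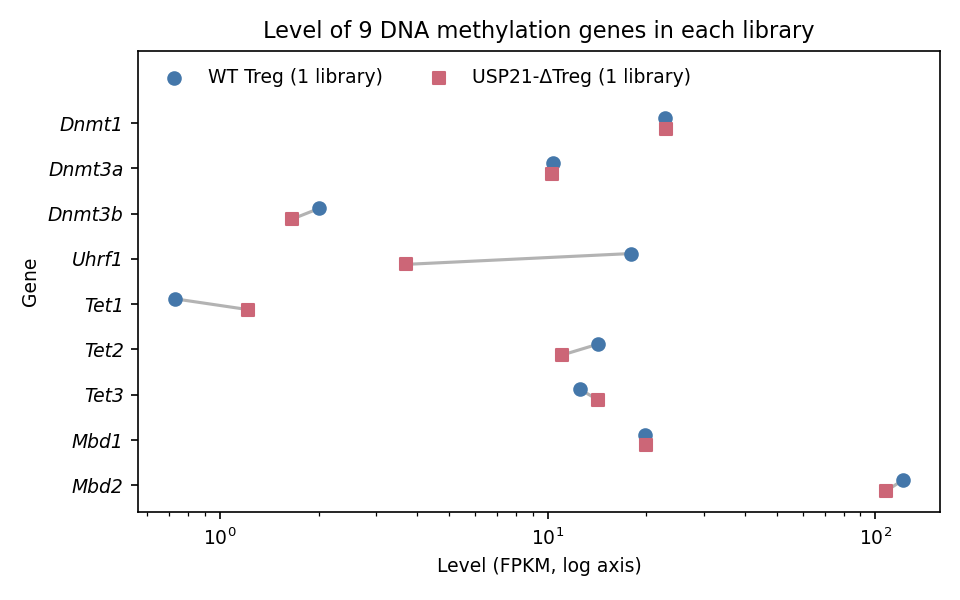
Level of each of the 9 genes in FPKM (log axis) in the WT Treg library (circles) and the USP21-ΔTreg library (squares), 1 library each, with a line joining both values of a gene. *Uhrf1* has the longest line, from 18.0 to 3.69 FPKM, and *Dnmt1*, *Dnmt3a* and *Mbd1* have points that nearly coincide.

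In WT Treg cells the order of levels, from the highest, was *Mbd2*, *Dnmt1*, *Mbd1*, *Uhrf1*, *Tet2*, *Tet3*, *Dnmt3a*, *Dnmt3b* and *Tet1*. In USP21-ΔTreg cells *Uhrf1* stood below *Dnmt3a*, in the 7th place, and *Tet3* stood above *Tet2*. With 1 library per genotype there is no spread over samples, so it is not known which neighbours in this order differ beyond it.

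To set fold changes, the log2 ratio of FPKM + 0.1 was taken, USP21-ΔTreg over WT Treg, a scale that understates differences of low genes. Genes with a mean of at least 1 FPKM over both libraries were kept, 10948 in all, and 8 of the 9 passed. *Tet1*, with a mean of 0.975 FPKM, lay just below. Of the 8 genes, 1 was at least 2-fold lower, none was at least 2-fold higher and 7 lay between. Among all genes kept, the 2-fold lower genes made up 6.20% and the 2-fold higher genes 7.78%. The 1 lower gene of 8 is a share of 12.5%, and a share made by 1 gene says nothing of the group as a whole. The median of the 8 genes was −0.09, and that of all genes kept was 0.20, so the FPKM scale as a whole lay higher in the USP21-ΔTreg library.

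The deposited counts gave a second scale. They are fragments divided by a size factor, and 1 fragment was worth 1.03 in the WT and 0.918 in the USP21-ΔTreg library. The 9 genes had between 179 and 5089 fragments in a library. On this scale the median of all genes kept was −0.01 and that of the 8 genes −0.27. Again 1 of the 8 was at least 2-fold lower and none higher, beside 7.93% of all genes lower and 4.34% higher. A 95% Clopper-Pearson interval of each ratio of scaled counts was computed from the fragments. It covers counting error only and not differences between mice. Fragments were not counted by molecular identifier, so copies made by PCR may be counted more than once and the interval may be too narrow. For all 9 genes the fold change was higher on FPKM than on counts, by 0.06 to 0.33 on the log2 scale.

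**Figure D2:**
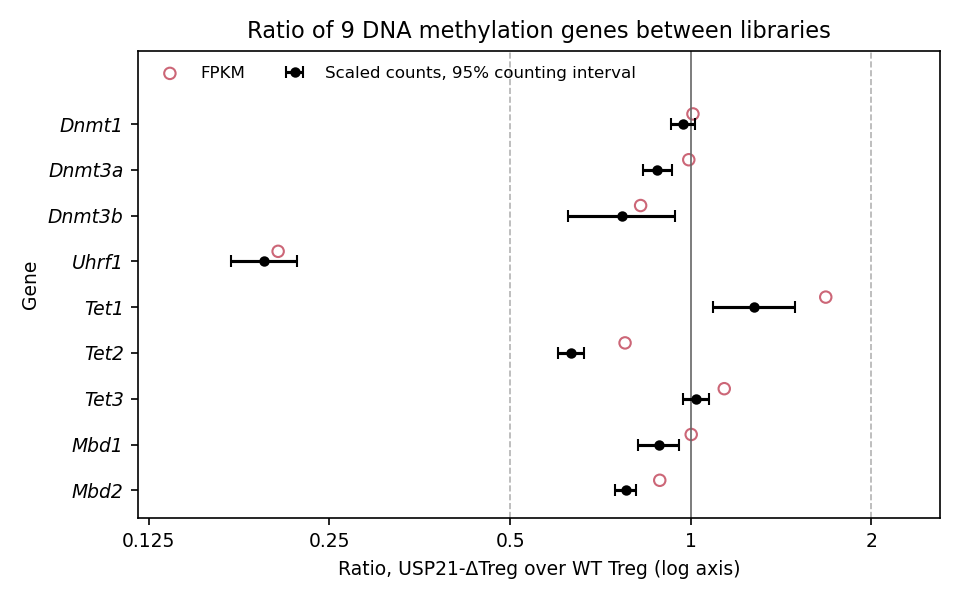
Ratio of each gene, USP21-ΔTreg over WT Treg (log axis), on scaled counts (filled points, bars are 95% Clopper-Pearson intervals, counting error only) and on FPKM (open circles), with dashed lines at a 2-fold difference. *Uhrf1* lies beyond the dashed line on both scales at 0.195 and 0.205, and the other 8 genes lie between the lines.

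Among the genes that write and maintain the mark, *Uhrf1* had 1406 fragments in the WT library and 307 in the USP21-ΔTreg library. The log2 fold change on FPKM was −2.25, and the ratio of scaled counts was 0.195 (0.172 to 0.220). Of the 10948 genes kept, 126 had a fold change at or below that of *Uhrf1*, a percentile of 1.15. Each gene has a single ratio in 2 libraries, so likeness of pattern can only mean a like ratio, and 18 genes kept, *Uhrf1* included, lay within 0.05 of its log2 fold change. Among the levels of all genes kept, *Uhrf1* was at the 60.8th percentile in the WT library and at the 16.4th in the USP21-ΔTreg library.

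*Dnmt1*, the maintenance methyltransferase, had 3572 and 3886 fragments, with a log2 fold change on FPKM of 0.01 and a ratio of scaled counts of 0.970 (0.927 to 1.02). The counting interval holds 1, and the sign of its fold change depended on the scale (−0.04 on counts). The level of *Dnmt1* was 1.27 times that of *Uhrf1* in the WT library and 6.23 times in the USP21-ΔTreg library.

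*Dnmt3a* (chr12:3806980-3914443, plus strand) and *Dnmt3b* (chr2:153649449-153687730, plus strand) encode the de novo methyltransferases. *Dnmt3a* stood at 10.4 FPKM in the WT and 10.3 FPKM in the USP21-ΔTreg library, and its ratio of scaled counts was 0.880 (0.832 to 0.931). *Dnmt3b* stood at 2.01 and 1.66 FPKM, with 208 and 179 fragments and a ratio of scaled counts of 0.767 (0.625 to 0.942). Of the 3 methyltransferase genes, *Dnmt1* was the highest in both libraries, 2.19 and 2.23 times the level of *Dnmt3a*. Their summed level was 35.2 FPKM in the WT library and 35.0 FPKM in the USP21-ΔTreg library. Exons of *Dnmt3a* share bases with those of the antisense gene *Dnmt3aos*. The sample labels and the study's methods name different library kits, of which only the latter is stranded, so antisense reads may be counted in *Dnmt3a*.

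The TET genes encode the dioxygenases that oxidize 5-methylcytosine. *Tet2* (chr3:133463677-133544390, minus strand) stood at 14.3 FPKM in the WT library and 11.1 FPKM in the USP21-ΔTreg library, or 3816 and 2701 fragments. The log2 fold change of *Tet2* (−0.36 on FPKM, −0.66 on counts) came with a ratio of scaled counts of 0.631 (0.601 to 0.663). After *Uhrf1* it was the lowest fold change of the 9 genes on both scales, and it stayed short of 2-fold. Its exons share bases with the antisense gene *Gm42567*.

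*Tet3* (chr6:83362374-83441678, minus strand) stood at 12.6 FPKM in the WT and 14.3 FPKM in the USP21-ΔTreg library, with a ratio of scaled counts of 1.02 (0.971 to 1.07). *Tet2* was at 1.14 times the level of *Tet3* in the WT library and at 0.777 times in the USP21-ΔTreg library. Which of the pair stood higher therefore differed between the libraries.

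*Tet1* (chr10:62804570-62880014, minus strand) was the lowest of the 9 genes, at 0.728 FPKM in the WT library and 1.22 FPKM in the USP21-ΔTreg library. It also had the highest fold change of the 9, 0.68 on the log2 scale of FPKM. It had 277 and 396 fragments, and its ratio of scaled counts was 1.27 (1.09 to 1.49), less than the FPKM ratio of 1.68. *Tet1* had 381 fragments per FPKM in the WT library and 324 in the USP21-ΔTreg library, so the factor between both scales differed between the libraries for this gene. The TET genes together summed to 27.6 FPKM in the WT and 26.6 FPKM in the USP21-ΔTreg library.

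Of the readers, *Mbd2* (chr18:70568292-70626131, plus strand), which encodes a protein that links methylated CpG to the NuRD corepressor, was the highest of the 9 genes in both libraries. It stood at 122 FPKM in the WT library and 108 FPKM in the USP21-ΔTreg library, at the 94.8th and 94.6th percentile of levels. Its ratio of scaled counts was 0.779 (0.748 to 0.811). *Mbd1* (chr18:74268288-74282684, plus strand), which encodes a methyl-CpG binding repressor, stood at 19.9 FPKM in both libraries, with a ratio of scaled counts of 0.884 (0.817 to 0.958). On FPKM *Mbd2* was at 6.12 times the level of *Mbd1* in the WT library and at 5.42 times in the USP21-ΔTreg library.

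On scaled counts, the counting intervals of *Dnmt1* and *Tet3* held 1 and those of the other 7 genes did not. At this depth most genes have an interval that does not hold 1, since it lay above 1 for 35.9% of all genes kept and below 1 for 38.8%, so this count is no mark of the 9 genes. That of *Tet1* lay above 1, and those of *Dnmt3a*, *Dnmt3b*, *Uhrf1*, *Tet2*, *Mbd1* and *Mbd2* lay below it. Relative to the median of all genes kept on FPKM, 8 of the 9 genes lay lower, while a median by definition has as many genes below it as above. *Tet3* was only just below it, at 0.18 beside 0.20. On counts *Tet3* lay above the median, at 0.03 beside −0.01, so the number depended on the scale. The sign of the small differences of *Dnmt1*, *Mbd1* and *Tet3* depended on how the libraries were scaled. The log2 fold change of *Mbd1* was 0.00 on FPKM and −0.18 on counts, and that of *Tet3* was 0.18 and 0.03 but −0.01 with FPKM fold changes centred on the median.

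**Figure D3:**
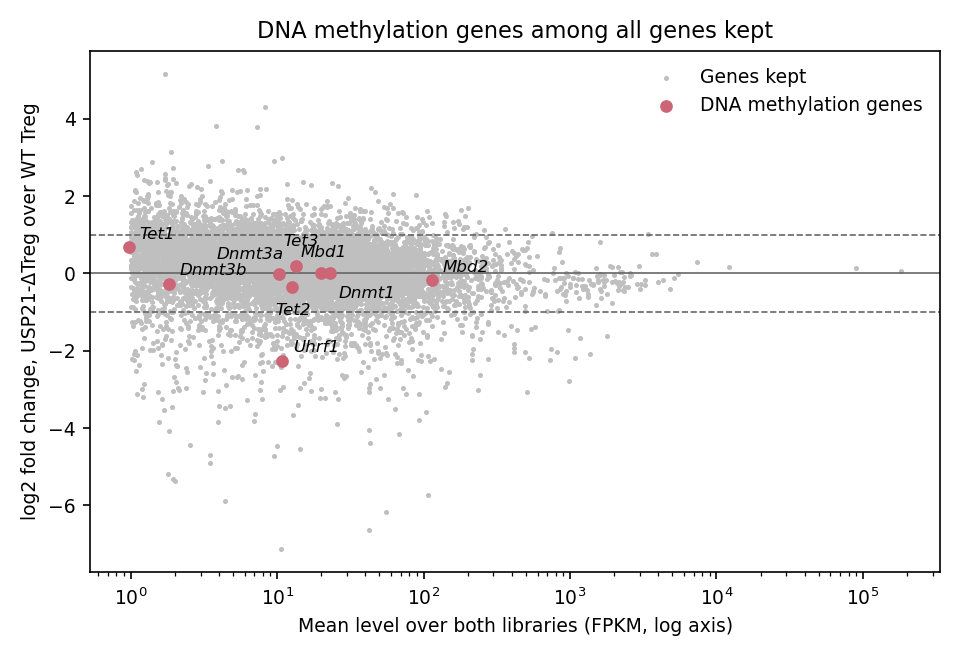
Log2 fold change of FPKM + 0.1, USP21-ΔTreg over WT Treg, against the mean level over both libraries in FPKM (log axis), for the 10948 genes kept (grey) and the 9 DNA methylation genes (red), of which *Tet1* at a mean of 0.975 FPKM was not among the genes kept. Dashed lines mark a 2-fold difference, and *Uhrf1* at −2.25 lies below the lower line.

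Beyond the 9 genes, 77 symbols of 8 lists of partners, further readers and MBD family members, repair enzymes and cofactor supply were described in the same way. By symbol, 73 of them matched a row and 71 were kept. *Idax* is another name of the listed *Cxxc4*, and *Paf*, a partner of PCNA, is in the table under its older symbol *2810417H13Rik* and is not in these counts. *2810417H13Rik*, looked up after other values were seen, had a log2 fold change of −0.37 on FPKM and −0.87 on counts. At least 2-fold lower were *Cdca7*, *Apex1* and *Ahcyl2* (4.23%), and *Neil1* and *Neil2* were 2-fold or more higher (2.82%), which left 66 between these limits. Among all genes kept, 6.20% were lower and 7.78% higher. Shares made by so few genes say nothing of the lists as a whole, and the same holds for the numbers of single lists below. The median over the 71 genes was 0.14 on FPKM and −0.12 on counts.

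The 7 maintenance partners kept had a median of −0.32 on FPKM, and the 1 gene past 2-fold was *Cdca7*, which encodes the partner that activates the remodeller HELLS. *Cdca7* stood at 19.8 FPKM in the WT library and 5.63 FPKM in the USP21-ΔTreg library, with a ratio of scaled counts of 0.251 (0.222 to 0.284). *Hells* itself, which opens nucleosomal DNA for methylation, stood at 7.70 and 5.48 FPKM, with a log2 fold change of −0.48 on FPKM and −0.97 on counts. *Uhrf2*, the paralogue of *Uhrf1*, was the highest of this list in fold change at 0.31 on FPKM and −0.01 on counts, and stood at 51.5 and 63.8 FPKM.

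None of 9 genes of de novo partners and imprint factors passed 2-fold. They ran from *Trim28*, a corepressor of zinc finger proteins, at −0.71 to *Setd2*, a histone H3K36 methyltransferase, at 0.51. None of 8 further genes of methyl-CpG readers and of the MBD family did either, and 7 of these had a positive value on FPKM and 5 on counts. Not all MBD family members are readers of the mark. Their median was 0.50 on FPKM and 0.27 on counts, with *Zbtb38* the highest at 0.80 and *Mbd3*, a NuRD subunit, the lowest at −0.73. None of 14 genes of NuRD and other corepressors of the readers passed 2-fold. They ran from *Hdac1* at −0.50 to *Ncor1* at 0.60, with a median of −0.02. The 5 TET partners and CXXC proteins ran from *Kdm2a* at −0.37 to *Ogt*, the O-GlcNAc transferase that binds TET proteins, at 0.68.

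Of 9 genes kept for the repair enzymes that replace the oxidized base, 1 was at least 2-fold lower, 2 were higher and 6 lay between. These are shares of 11.1% and 22.2%, beside 6.20% of all genes kept that were lower and 7.78% that were higher. Shares made by 1 and 2 genes say nothing of the list as a whole. *Apex1*, which encodes the endonuclease that cuts abasic sites, was at 23.4 FPKM in the WT library and 4.33 FPKM in the USP21-ΔTreg library, with 611 and 117 fragments and a ratio of scaled counts of 0.171 (0.139 to 0.208). Its exons share bases with the antisense gene *Pip4p1*. The DNA glycosylase genes *Neil1* (15.4 and 31.9 FPKM) and *Neil2* (1.55 and 4.18 FPKM) were higher in the library of USP21-ΔTreg cells, by 1.05 and 1.37 on the log2 scale. *Tdg*, which encodes the glycosylase that excises the products of TET, had 552 and 609 fragments and a ratio of scaled counts of 0.984 (0.875 to 1.11).

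Of 9 genes of the S-adenosylmethionine cycle, which supplies the methyl group, *Ahcyl2* was at least 2-fold lower. It encodes a homologue of the hydrolase that removes S-adenosylhomocysteine, and stood at 104 and 36.2 FPKM (log2 fold change −1.51). *Ahcy*, the gene of that hydrolase, stood at 23.0 and 17.6 FPKM, with a log2 fold change of −0.38 on FPKM and −0.51 on counts. Exons of *Ahcyl2* share bases with *4930528J11Rik*, and those of *Mat2a* with *Particl*, each on the other strand. *Mat2a*, which encodes the catalytic subunit of the enzyme that makes S-adenosylmethionine, stood at 90.3 and 46.9 FPKM. Its log2 fold change was −0.94 on FPKM, short of 2-fold, and −1.31 on counts, past it. The highest gene of this list was *Adk*, adenosine kinase, at 0.99. None of 10 genes around 2-oxoglutarate, the cosubstrate of TET, passed 2-fold, and they ran from *Idh3g* at −0.10 to *D2hgdh* at 0.90.

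*Uhrf1* and *Dnmt1* are known to be expressed most in S phase, so genes of DNA replication and the cell cycle were set beside them. Of these 15 genes, 4 passed the 2-fold limit and all 4 were lower (26.7%), beside 6.20% of all genes kept that were lower and 7.78% that were higher. The lower genes were *Gins2* (log2 fold change −1.47), *Mcm3* (−1.29), *Mcm5* (−1.23) and *Mcm2* (−1.18), which encode subunits of the replicative helicase. Other subunits of the same helicase differed less, with *Mcm4* at −0.04, *Mcm6* at −0.16 and *Mcm7* at −0.35 on FPKM and between −0.46 and −0.34 on counts. Exons of *Gins2* share bases with those of *Gse1* on the other strand. *Mki67*, a marker of cycling cells, stood at 4.30 FPKM in the WT and 7.30 FPKM in the USP21-ΔTreg library, the highest fold change of the list at 0.75. The median of the list was −0.16 on FPKM and −0.46 on counts. The list was chosen with earlier results of these data known, and whether the share of cells in S phase differed was not tested. The E2F letters described above were found for 5 of 12 of these genes with a promoter window, *Mcm3*, *Mcm5*, *Mcm6*, *Mcm7* and *Cdk1*, against 2.12% of 27025 genes. The 5 genes comprised 2 that were at least 2-fold lower and 3 that were not. This share follows from the genome sequence and the choice of list and is no result of these libraries. Whether the letters relate to the levels was not tested.

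**Figure D4:**
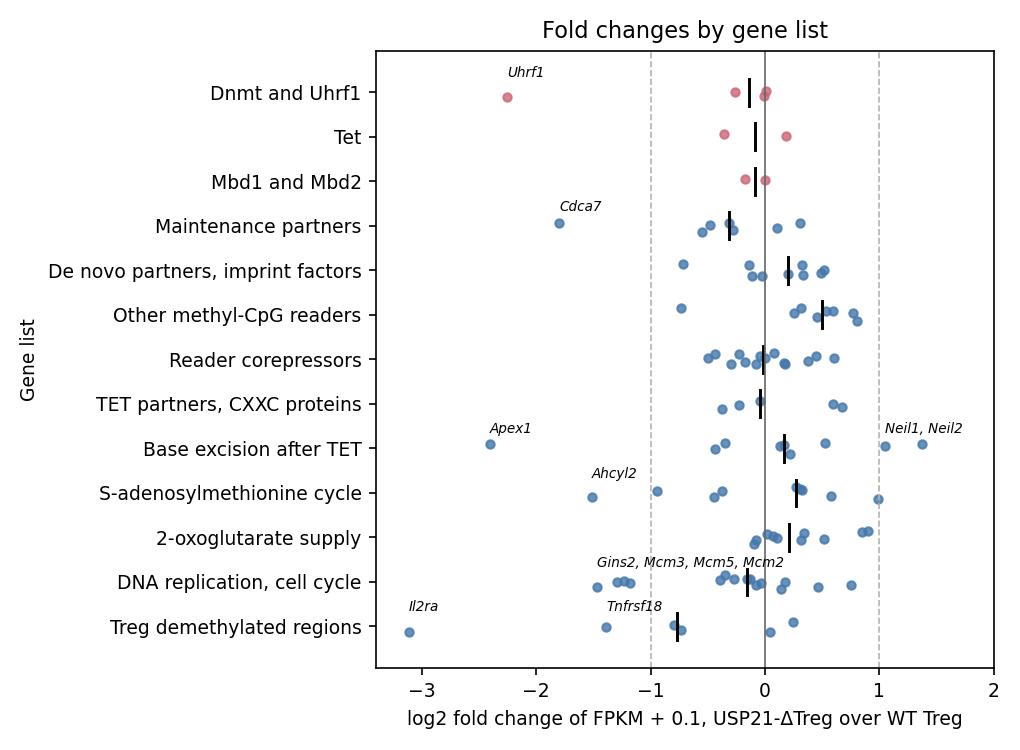
Log2 fold change of each gene with a mean of at least 1 FPKM, USP21-ΔTreg over WT Treg, by gene list, with red points for the DNA methylation genes, blue points for other genes, black bars at list medians and dashed lines at a 2-fold difference. Vertical scatter has no meaning, and genes past the lines are named, among them *Uhrf1* at −2.25, *Cdca7* at −1.80 and *Apex1* at −2.40.

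Genes known to carry regions that lose methylation in Treg cells differed unequally. Of 6 such genes, *Il2ra* (log2 fold change −3.12) and *Tnfrsf18*, which encodes GITR (−1.39), were at least 2-fold lower in the library of USP21-ΔTreg cells. This is a share of 33.3%, beside 6.20% of all genes kept. A share made by 2 genes of a list chosen with earlier results known says nothing of the group as a whole. *Ikzf4* (−0.80) and *Foxp3* (−0.73) lay short of that limit, and *Ctla4* and *Ikzf2* were at 0.04 and 0.24 on FPKM but −0.34 and −0.23 on counts. Exons of *Tnfrsf18* share bases with *Gm16008*, and those of *Foxp3* with *Ccdc22*, *Flicr*, *Gm36995* and *Ppp1r3f*. DNA methylation was not measured in these libraries, and no relation between the levels of these genes and those of *Uhrf1* or the TET genes was tested.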

How the data were processed

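RNA-seq of 1 library of WT Treg and 1 of USP21-ΔTreg cells was used. The authors filtered reads of ribosomal RNA, adaptors and low quality, and aligned to mm10 using TopHat2 2.0.9. Cufflinks 2.1.1 then gave FPKM values per gene, which the authors scaled to transcript length and library size. Estimated counts were deposited by the authors as well, as fragments divided by a size factor. They were divided by the value of 1 fragment, taken from the steps of low values, and rounded to whole fragments. Over the table, 97.2% of values above 0 in each library were then whole within 0.02. With 1 library per genotype no count model was run.

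Fold changes used a pseudocount of 0.1 FPKM, a minimum mean of 1 FPKM and a limit of 2-fold. Alternatives were other pseudocounts, filters, limits and scalings, and counts with 1 fragment added. Named were the 9 genes, *Usp21* and *Foxp3*, and of each further list the genes past 2-fold and the lowest and highest. *Hells*, *Uhrf2*, *Tdg*, *Mat2a*, *Kdm4b*, *Plin3* and other list members were named after their values were seen. The genes and lists were chosen with earlier results of these data known. Positions are those of the table on mm10, and GENCODE M21 gave strands and shared exons. Promoters of 7 of the 9 genes were matched in RefSeq. Steps were tested on simulated data. Scripts ran on Python 3.11.15 with scipy 1.17.1 for intervals, pandas 2.3.3 and numpy 2.4.6 for tables, and matplotlib 3.10.9 for plots.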

Additional observations from a re-analysis of the deposited data

How the results depend on the processing

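*Uhrf1* was at least 2-fold lower under each of the 7 alternative filters, pseudocounts and scalings, with a log2 fold change from −2.45 to −2.02. The filters only choose which genes are kept and cannot change the ratio of a gene, so only the pseudocounts and scalings could move this value. That *Uhrf1* also passed the limits of 1.5-fold and 3-fold follows from its value with the main settings, −2.25. None of the other 8 genes passed 2-fold where it had a value under these settings. *Dnmt3b* had none at a mean of at least 5 FPKM. The median of the genes kept among the 9, −0.09 with the main settings, was −0.27 on scaled counts and −0.29 with fold changes centred on the median of all genes. It was −0.15 with upper quartile scaling and −0.01 both without the filter and at a mean of at least 5 FPKM. Of the 71 further pathway genes kept, 2 were at least 2-fold higher, and this number was 1 at a mean of at least 5 FPKM, 1 with median centring, 1 with upper quartile scaling, 11 at 1.5-fold and 0 at 3-fold. The number of lower genes, 3, became 6 at 1.5-fold, 2 at 3-fold and 4 on scaled counts, with median centring and with upper quartile scaling. The causes were not tested, beyond the limits and filters themselves. No paired analysis was possible because there was a single library of WT and of USP21-ΔTreg cells, which also left no library to leave out. *Dnmt3b*, with 208 and 179 fragments, had the widest counting interval among the 8 of the 9 genes that passed the filter.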

Other observations

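Germline genes that DNA methylation is known to silence in body cells were near 0 in both libraries. Of 11 such genes, 6 had a row and none had a mean of at least 1 FPKM. *Sycp1* had 85 fragments in the WT library and 16 in the USP21-ΔTreg library, a ratio of scaled counts of 0.168 (0.0918 to 0.289). *Sycp3* had 0 and 6 fragments, *Dazl* had 0 and 4, *Ddx4* had 3 in each library and *Tdrd1* had 2 and 0. *Slc25a31* had none in either, and a count of 0 allows up to 3 fragments. *Sycp1* was lower in the USP21-ΔTreg library, whereas *Sycp3* and *Dazl* had fragments only there, so no common direction was detectable.

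The next gene of the table after *Uhrf1*, *Kdm4b*, which encodes a histone H3K9 demethylase, begins 2563 bases beyond the end of *Uhrf1* on the same strand and was also at least 2-fold lower. *Kdm4b* stood at 30.3 FPKM in the WT library and 12.5 FPKM in the USP21-ΔTreg library (log2 fold change −1.27), with 2994 and 1463 fragments. *Plin3*, the nearest gene on the other side of *Uhrf1*, had a log2 fold change of 0.16. This pair of neighbours was looked at after the value of *Uhrf1* was seen, and whether reads that run past the end of *Uhrf1* enter the count of *Kdm4b* was not tested.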
